A study of Homo sapiens with 6 samples.

Results

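The 7 genes described here, FHIT, WWOX, MACROD2, LRP1B, IMMP2L, NAALADL2 and CTNNA3, are very long human genes that lie at common fragile sites of the chromosomes. They were chosen by name from that knowledge and by no rule on values of these data, although earlier results of these data were known. They were found by symbol in the GRCh38 gene table, where they are 7 of 315 protein-coding genes over 500 kb and 7 of 20037 protein-coding genes in all. Their bodies add up to 10.7 Mb, from 900 kb for IMMP2L to 2058 kb for MACROD2, with a median of 1504 kb against 715 kb for the other 308 long genes. Every deposited region that shared at least 1 base with a gene body was counted as a region of that gene.

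MAR-seq sequences the DNA that stays with the nuclear matrix, the insoluble scaffold of proteins and RNA that remains after nuclei have been extracted and their loose DNA cut away. It was applied to H1 cells, a human embryonic stem cell line grown here on Matrigel in mTeSR1 medium. The 3 groups of 2 samples were cells left untreated (hPSC), cells given a hairpin RNA named for luciferase as a control (shLUC) and cells given one that targets HNRNPU (shHNRNPU), the gene of an RNA- and DNA-binding protein of the nuclear matrix. In all groups nuclei were opened with a Triton X-100 cytoskeletal buffer, fixed with formaldehyde and digested with MspI, HaeIII, RsaI, AluI, BamHI and PvuII, while the input DNA was sheared by sonication. The labels give no hairpin vector, time after transduction, clone, day of preparation or depth. The lists hold no expression value, so neither the HNRNPU knockdown nor the pluripotent state of the cells could be checked in them.

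Each group has 1 deposited list, with 40106 regions for hPSC, 39368 for shLUC and 36277 for shHNRNPU, each region 400 bases wide and with a score of 0. No value below therefore has a replicate error, and no p-value is given. Intervals are exact 95% intervals (Poisson for counts, Clopper-Pearson for shares and for the ratio of 2 counts). They cover counting error only, within these lists, and not the spread between cultures or between genes. The hPSC list differs from both hairpin lists by the hairpin itself and possibly by the run and the calling, which cannot be told apart, so shHNRNPU against shLUC is the comparison that bears on HNRNPU.

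Common fragile sites are stretches of normal chromosomes that form gaps and breaks when DNA replication is slowed. Many of them lie inside very long genes that replicate late and hold few replication origins, so that both replication and transcription have a long way to travel on the same template. They are frequent places of deletion in cancer cells. Matrix attachment is commonly described as the anchoring of chromatin loops, and a loop is then the DNA between neighbouring anchors. The lists give the number and spacing of regions inside such genes, and whether a region is an anchor was not tested.

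FHIT codes for a diadenosine triphosphate hydrolase and WWOX for an oxidoreductase with WW domains, and these 2 genes lie at the classical fragile sites of the short arm of chromosome 3 and the long arm of chromosome 16. MACROD2 removes mono-ADP-ribose from proteins, LRP1B is an endocytic receptor of the LDL receptor family, and IMMP2L is a subunit of the peptidase of the mitochondrial inner membrane. NAALADL2 resembles glutamate carboxypeptidases, and CTNNA3 codes for alpha-T-catenin, which links cadherin junctions to actin.

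Promoter sequence is shown because each gene with a known strand had a region within 1 kb of its 5′ end in at least 1 list, as described further on, and because the DNA was released by enzymes whose cutting sites can be read from it. The RefSeq table of GRCh38.p14 held 9 start windows for 6 of the 7 genes. Each sequence below is the 250 bases before an annotated start, read 5′ to 3′ on the strand of the gene, with the letters of the enzymes' cutting sites in capitals (MspI CCGG, HaeIII GGCC, RsaI GTAC, AluI AGCT, BamHI GGATCC, PvuII CAGCTG, all the same on both strands). Each PvuII site holds an AluI site, and neighbouring MspI and HaeIII sites can share letters, as in CCGGCC. The windows printed are the outer starts of WWOX (chr16:78099404-78099653, plus strand), FHIT (chr3:61251453-61251702, minus strand), MACROD2 (chr20:13995266-13995515, plus strand) and IMMP2L (chr7:111562493-111562742, minus strand), and the internal starts of FHIT (chr3:60080910-60081159, minus strand) and MACROD2 (chr20:15196590-15196839, plus strand). The remaining windows, at internal starts of NAALADL2 and CTNNA3, are not printed. For these genes the RefSeq table held no window at the outer start.
WWOX outer start: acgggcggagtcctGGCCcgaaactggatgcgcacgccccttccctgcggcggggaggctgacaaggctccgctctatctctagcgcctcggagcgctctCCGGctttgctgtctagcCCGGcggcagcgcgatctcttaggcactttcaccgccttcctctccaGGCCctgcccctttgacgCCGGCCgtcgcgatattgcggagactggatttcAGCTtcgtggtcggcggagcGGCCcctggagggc
FHIT outer start: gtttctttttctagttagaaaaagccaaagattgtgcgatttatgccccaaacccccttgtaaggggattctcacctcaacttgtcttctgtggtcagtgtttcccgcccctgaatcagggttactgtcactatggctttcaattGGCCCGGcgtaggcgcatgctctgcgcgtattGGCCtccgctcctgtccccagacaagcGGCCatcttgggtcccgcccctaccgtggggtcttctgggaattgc
MACROD2 outer start: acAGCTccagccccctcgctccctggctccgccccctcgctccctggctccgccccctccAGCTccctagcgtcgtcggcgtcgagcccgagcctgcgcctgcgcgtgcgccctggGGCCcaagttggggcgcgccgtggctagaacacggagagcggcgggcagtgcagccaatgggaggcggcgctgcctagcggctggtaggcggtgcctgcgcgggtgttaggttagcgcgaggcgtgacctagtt
IMMP2L outer start: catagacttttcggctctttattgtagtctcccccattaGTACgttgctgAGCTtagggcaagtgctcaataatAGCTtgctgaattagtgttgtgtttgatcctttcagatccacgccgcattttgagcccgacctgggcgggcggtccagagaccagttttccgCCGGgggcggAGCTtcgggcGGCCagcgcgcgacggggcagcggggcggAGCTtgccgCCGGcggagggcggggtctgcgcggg
FHIT internal start: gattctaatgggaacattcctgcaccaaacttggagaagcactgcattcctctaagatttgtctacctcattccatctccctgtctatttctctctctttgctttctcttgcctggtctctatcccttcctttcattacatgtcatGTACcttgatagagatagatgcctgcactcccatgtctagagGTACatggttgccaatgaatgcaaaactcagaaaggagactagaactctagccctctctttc
MACROD2 internal start: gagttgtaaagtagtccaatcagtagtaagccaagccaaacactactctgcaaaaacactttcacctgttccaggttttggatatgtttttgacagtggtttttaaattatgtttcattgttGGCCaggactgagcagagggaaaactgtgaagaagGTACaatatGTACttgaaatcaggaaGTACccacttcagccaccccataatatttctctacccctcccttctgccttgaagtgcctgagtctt

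The WWOX window was overlapped by a region in hPSC and shLUC, and the outer FHIT window by a region in both hairpin lists. No region of any list overlapped the other 7 windows, although those of MACROD2 and IMMP2L had a region just inside the gene. The outer windows held 67.6% G and C and 27 CpG in WWOX, 73.2% and 29 CpG in MACROD2 and 61.6% and 24 CpG in IMMP2L. The outer window of FHIT was lower, with 54.0% and 11 CpG. The internal windows of FHIT and MACROD2 held 43.6% and 41.6% G and C and 0 CpG. The 4 outer windows held 8, 4, 3 and 8 cutting sites and the internal windows of FHIT and MACROD2 held 2 and 4, so the 2 windows with a region did not stand together in this count. Over all 35116 windows of the table the medians were 58.0% G and C, 11 CpG and 5 cutting sites, and 96.1% held a site. By enzyme the shares were 58.5% for MspI, 74.5% for HaeIII, 25.5% for RsaI, 66.1% for AluI, 5.57% for BamHI and 14.0% for PvuII. Among all windows, those overlapped by a shLUC region had a median of 71.6% G and C, 27 CpG and 8 cutting sites, against 56.0%, 8 and 4 for those without. Cutting sites and G and C content thus moved together with the presence of a region, and the part of each in the calling of regions was not tested.

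The number of regions differed widely between the genes. FHIT (chr3:59747277-61251452) held 8 regions in hPSC, 15 in shLUC and 13 in shHNRNPU. WWOX (chr16:78099654-79212667) held 8, 6 and 10 regions in the same order of lists. It was lowest in shLUC, unlike the other 6 genes. MACROD2 (chr20:13995516-16053197) held 15, 17 and 14 regions. LRP1B (chr2:140231423-142131016) held 5, 9 and 6 regions, which made it the sparsest of the 7 in every list although it is the second longest. IMMP2L (chr7:110662644-111562492), the shortest of the 7, held 6, 11 and 14 regions. NAALADL2 (chr3:174440982-175810548) held 7, 13 and 12 regions, and CTNNA3 (chr10:65912523-67763594) held 11, 16 and 16. In 5 of the 7 genes hPSC was the lowest list, the exceptions being WWOX and MACROD2.

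**Figure D1:**
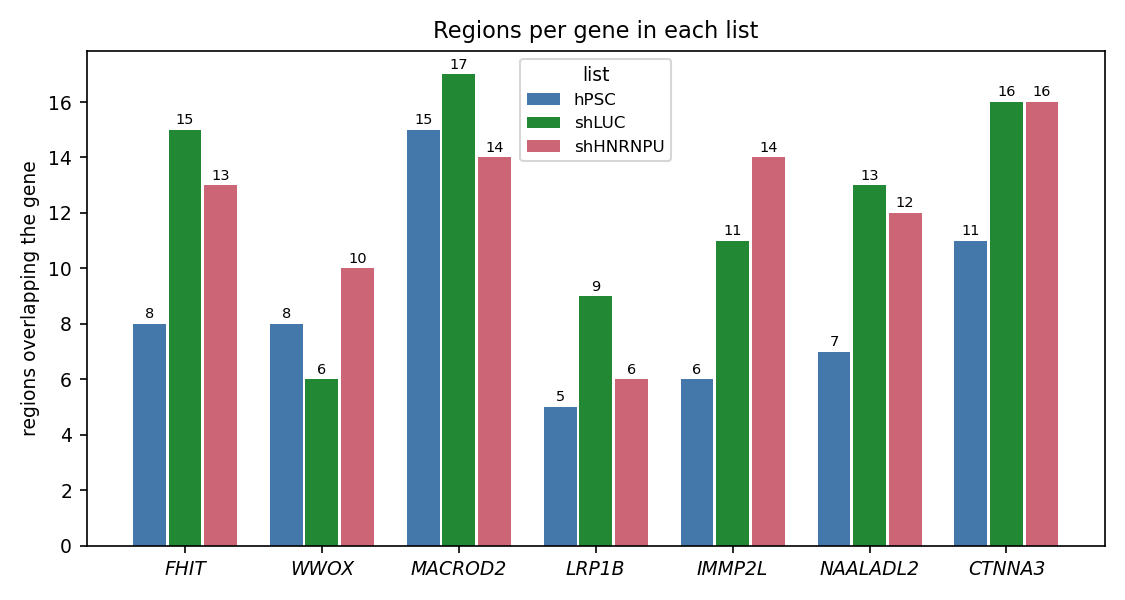
Bars give the number of deposited regions that overlap each gene body in the hPSC, shLUC and shHNRNPU lists, with 1 list per group and therefore no error bar. LRP1B has 5 to 9 regions and MACROD2 14 to 17, and IMMP2L has 14 in shHNRNPU against 6 in hPSC.

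Per length, LRP1B was lowest in every list, and the order of the other genes changed between lists. In hPSC the density ran from 2.63 regions per Mb in LRP1B (0.855 to 6.14) through 5.11 in NAALADL2, 5.32 in FHIT, 5.94 in CTNNA3, 6.67 in IMMP2L and 7.19 in WWOX to 7.29 in MACROD2 (4.08 to 12). The intervals of neighbours in this order overlapped throughout, as did those of its lowest and highest gene. In shLUC it ran from 4.74 in LRP1B (2.17 to 8.99) and 5.39 in WWOX through 8.26 in MACROD2, 8.64 in CTNNA3, 9.49 in NAALADL2 and 9.97 in FHIT to 12.2 in IMMP2L (6.10 to 21.9). In shHNRNPU LRP1B was again lowest with 3.16 (1.16 to 6.87), followed by MACROD2 with 6.80, FHIT and CTNNA3 with 8.64 each, NAALADL2 with 8.76 and WWOX with 8.98. IMMP2L was highest with 15.6 (8.51 to 26.1), and its interval and that of LRP1B did not overlap in this list.

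The 7 genes held fewer regions per Mb than other long genes, and the ratio was lowest in hPSC. Together they had 60 regions in hPSC (45.8 to 77.2), 87 in shLUC (69.7 to 107) and 85 in shHNRNPU (67.9 to 105), or 5.61, 8.13 and 7.95 regions per Mb. The other 308 genes over 500 kb had 10.3, 11.1 and 10.2 regions per Mb. The log2 ratio of the 2 densities was -0.88 in hPSC (-1.27 to -0.51), -0.45 in shLUC (-0.77 to -0.14) and -0.35 in shHNRNPU (-0.68 to -0.04). These intervals take each region as a separate count and leave out the spread between genes. That spread was wide, with quartiles of the other long genes at 6.30 and 15.1 regions per Mb in hPSC, 7.67 and 15.2 in shLUC and 6.67 and 14.0 in shHNRNPU. A difference between the classes of genes was therefore not tested. In hPSC all 7 genes lay below the median of the other long genes, 9.63 regions per Mb, and in each hairpin list 6 of 7 did, with IMMP2L above it. Counted from the lowest of 315 long genes, LRP1B ranked 22, 33 and 16 in hPSC, shLUC and shHNRNPU, whereas IMMP2L ranked 90, 195 and 257.

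The ratio depended on the length of the genes it was set against. Against the 63 other genes over 1 Mb, a class to which 6 of the 7 belong, the log2 ratio was -0.52 in hPSC (-0.92 to -0.14), with all 7 genes below that class's median. In the hairpin lists it was -0.16 in shLUC (-0.49 to 0.17) and -0.08 in shHNRNPU (-0.43 to 0.24), with 4 of 7 genes below the median in each, so a lower density than in genes of like length was not detectable there. Without LRP1B the log2 ratio to all other long genes fell in size to -0.72, -0.32 and -0.18 in the 3 lists.

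**Figure D2:**
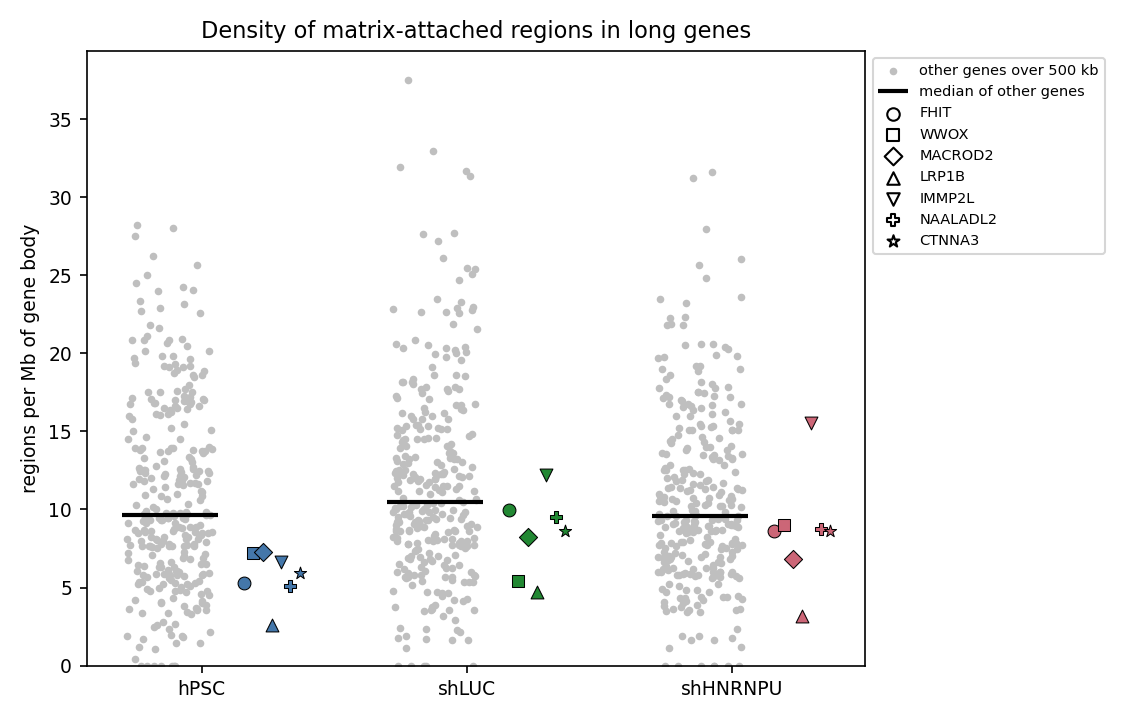
Each point is the density of regions in 1 gene body, in regions per Mb, with grey points for the 308 other protein-coding genes over 500 kb, a black bar at their median and coloured symbols for the 7 fragile site genes. In hPSC all 7 symbols lie under the bar at 9.63 regions per Mb, and in both hairpin lists IMMP2L lies above it.

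The sequence beside the genes was denser in regions than the bodies in hPSC, while in the hairpin lists the difference was within counting error. In the 500 kb on each side the 7 genes together had 10.6 regions per Mb in hPSC, 10.4 in shLUC and 9.71 in shHNRNPU. The log2 ratio of body to flanks was -0.91 in hPSC (-1.43 to -0.40), where all 7 bodies were below their own flanks, and the corresponding value for the other long genes, -0.44, lay just within this interval. In shLUC it was -0.36 (-0.82 to 0.11) and in shHNRNPU -0.29 (-0.77 to 0.19), close to the -0.27 and -0.26 of the other long genes. IMMP2L and CTNNA3 were denser inside than beside the gene in both hairpin lists. With flanks of 1000 kb, MACROD2, LRP1B and NAALADL2 were also denser inside in shLUC, and not in shHNRNPU. The CTNNA3 flanks held 6 regions per Mb in both hairpin lists and 13 per Mb in hPSC. WWOX had the densest flanks in both hairpin lists, 16 regions per Mb, of which 10 regions lay within 500 kb below the gene.

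**Figure D3:**
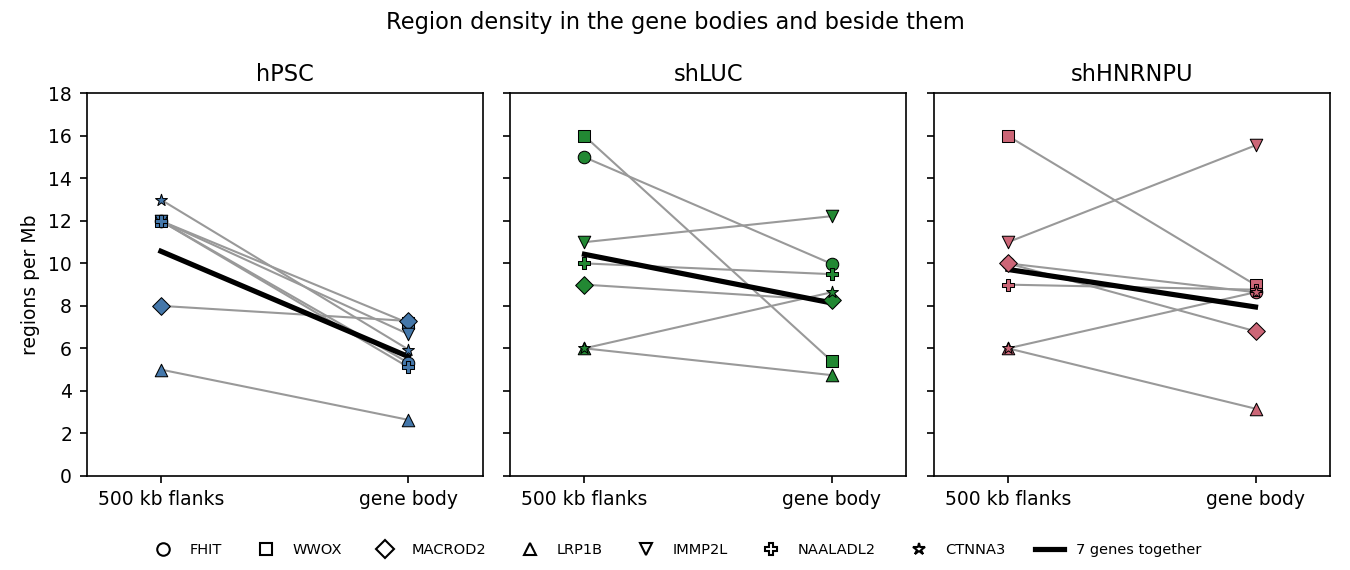
Lines join the density of regions in the 500 kb on each side of a gene with that in its body, in regions per Mb, with 1 panel per list and the 7 genes together in black. All 7 lines go down in hPSC, and in both hairpin lists those of IMMP2L and CTNNA3 go up.

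Between the hairpin lists the number of regions in these genes differed by less than the counting error of 2 independent counts. The log2 ratio of shHNRNPU to shLUC over the 7 genes was -0.03 (-0.48 to 0.41), against -0.13 for the other long genes and -0.12 for the whole list. The 2 lists are not independent, as 68 regions of the 7 genes had identical coordinates in both. The intervals given here do not use this pairing. WWOX had 6 regions in shLUC and 10 in shHNRNPU, 1.67-fold more, and was the 1 gene of 7 at least 1.5-fold higher, a threshold that 4.81% of 270 long genes with at least 5 regions in either list passed. LRP1B had 9 and 6 regions and was the 1 gene of 7 at least 1.5-fold lower, a threshold that 12.6% of the 270 passed. For both genes the interval of the log2 ratio spanned 0, at -0.87 to 2.48 for WWOX and -2.36 to 1.07 for LRP1B. CTNNA3 held 16 regions in each list. FHIT, MACROD2, IMMP2L and NAALADL2 differed by 1.08- to 1.27-fold.

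The untreated cells had fewer regions in these genes together than either hairpin list. The log2 ratio of hPSC to shLUC was -0.54 over the 7 genes (-1.04 to -0.05), while it was -0.11 for the other long genes and 0.03 for the whole list. The difference between the 7 genes and the other long genes in this ratio was -0.43. The interval of the 7 genes, moved by the ratio of the other long genes, spanned 0 (-0.93 to 0.06). It leaves out the counting error of the other long genes. FHIT was 1.88-fold lower in hPSC, NAALADL2 1.86-fold, IMMP2L 1.83-fold and LRP1B 1.80-fold. These 4 of 7 genes passed the 1.5-fold threshold downwards, which 25.4% of 284 long genes did, and 0 of 7 passed it upwards, against 19.4%. Each of these 4 genes had an interval that spanned 0, and the hPSC and shHNRNPU lists, whose log2 ratio was -0.50 (-1.0 to -0.01), differed by a like amount. Both comparisons use the hPSC list, so they are not independent of each other.

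Most regions of the hairpin lists lay at the same places, while few hPSC regions overlapped one of a hairpin list, much as in the other long genes. Of the 87 shLUC regions in the 7 genes 68 were found in shHNRNPU (78.2%, 68.0 to 86.3), against 72.3% in the other long genes, and all 68 had identical coordinates in both lists, as had 2017 of the 2018 shared regions of the other long genes. The share was 10 of 11 in IMMP2L, 13 of 15 in FHIT, 11 of 13 in NAALADL2, 5 of 6 in WWOX, 13 of 16 in CTNNA3, 11 of 17 in MACROD2 and 5 of 9 in LRP1B. Of the 60 hPSC regions 5 were found in shLUC (8.33%, 2.76 to 18.4) and 7 in shHNRNPU (11.7%, 4.82 to 22.6), against 11.9% and 13.1% in the other long genes. The median distance from the centre of an hPSC region to the nearest shLUC centre was 32.9 kb in these genes and 21.6 kb in the others. Whether lists of the same kind of cells prepared again would share more was not tested, because each group has 1 list.

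When overlapping regions were joined, the 3 lists gave 154 distinct sites in the 7 genes. Of these, 2 were in all 3 lists (1.3%, 0.158 to 4.61, against 3.46% in the other long genes). They were chr20:14226447-14226877 in MACROD2, 231 kb from its start, and chr3:174440834-174441385 at the start of NAALADL2. A further 66 sites were in both hairpin lists and not in hPSC (42.9%, 34.9 to 51.1, against 33.4% in the other long genes), and 50 were in hPSC alone (32.5%, 25.2 to 40.5, against 39.1%). The shLUC list alone held 16 sites, the shHNRNPU list alone 12, hPSC and shLUC shared 3 and hPSC and shHNRNPU shared 5.

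**Figure D4:**
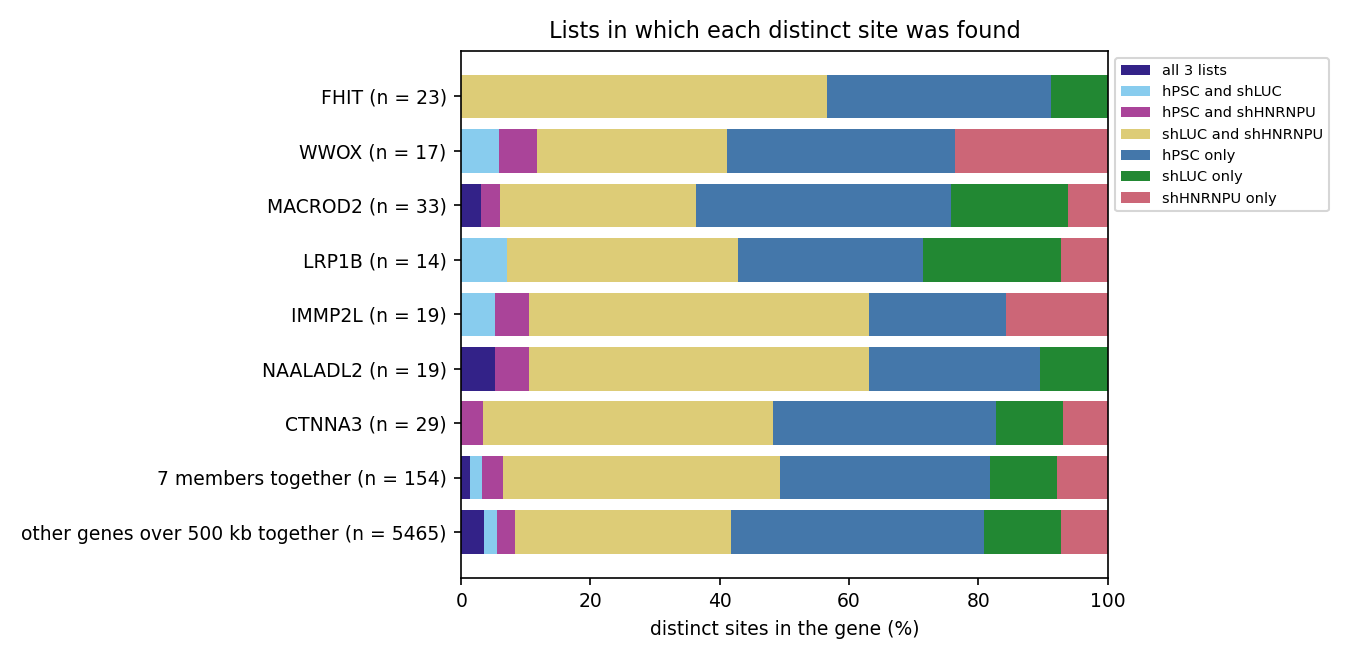
Stacked bars give, for each gene, the percent of its distinct sites found in each combination of the 3 lists, with the number of sites in brackets. Sites of both hairpin lists make up 56.5% of the 23 sites in FHIT, which has no site that hPSC shares with a hairpin list.

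None of the 8 hPSC regions of FHIT overlapped a hairpin region (0%, 0 to 36.9), and none lay within 5 kb of one. In the other long genes 22.7% of hPSC regions lay within 5 kb of a shLUC region and 22.3% within 5 kb of a shHNRNPU region, so a count of 0 of 8 is not set apart from them by its counting error. The longest stretch of FHIT without an hPSC region, 653 kb, ran from 193 to 847 kb above the lower end of the gene, and there shLUC held 8 regions and shHNRNPU 6. The longest stretch without a hairpin region, 446 kb from 757 to 1203 kb, was the same in both hairpin lists and held 4 hPSC regions. All 13 shHNRNPU regions of FHIT were also in shLUC, which had 2 more, at 640 and 689 kb.

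In WWOX the sites found in shHNRNPU alone, and in MACROD2 those found in shLUC alone, lay within a short part of the gene. WWOX had 4 sites in shHNRNPU alone, all of them within 202 kb (chr16:78239434-78441039), from 140 to 341 kb of a gene of 1113 kb. The longest stretch of WWOX without a shLUC region, from 202 to 571 kb, took in 3 of them. A further shHNRNPU site absent from shLUC lay outside this part, at 671 kb, and was shared with hPSC. MACROD2 had 6 sites in shLUC alone, all within 141 kb (chr20:14302099-14443255), from 307 to 448 kb of a gene of 2058 kb. The longest stretch of MACROD2 without a shHNRNPU region, 553 kb from 231 to 785 kb, took in all 6. The 2 sites of MACROD2 in shHNRNPU alone, in contrast, were spread over 1330 kb. The 2 clusters were seen in the values and then described, with no test. FLRT3, a short gene for a membrane protein of cell adhesion and axon guidance, lies within the MACROD2 cluster and had a region in hPSC (chr20:14337471-14337870).

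In the other 5 genes the sites of a single hairpin list were fewer, 0 to 3 per list, and their spread varied. FHIT had 2 in shLUC alone within 49.3 kb. LRP1B had 3 sites in shLUC alone, spread over 1599 kb, and 1 in shHNRNPU alone. IMMP2L had 3 in shHNRNPU alone over 744 kb and 0 in shLUC alone. NAALADL2 had 2 in shLUC alone, 428 kb apart at their outer ends. CTNNA3 had 3 in shLUC alone over 252 kb and 2 in shHNRNPU alone over 1368 kb.

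**Figure D5:**
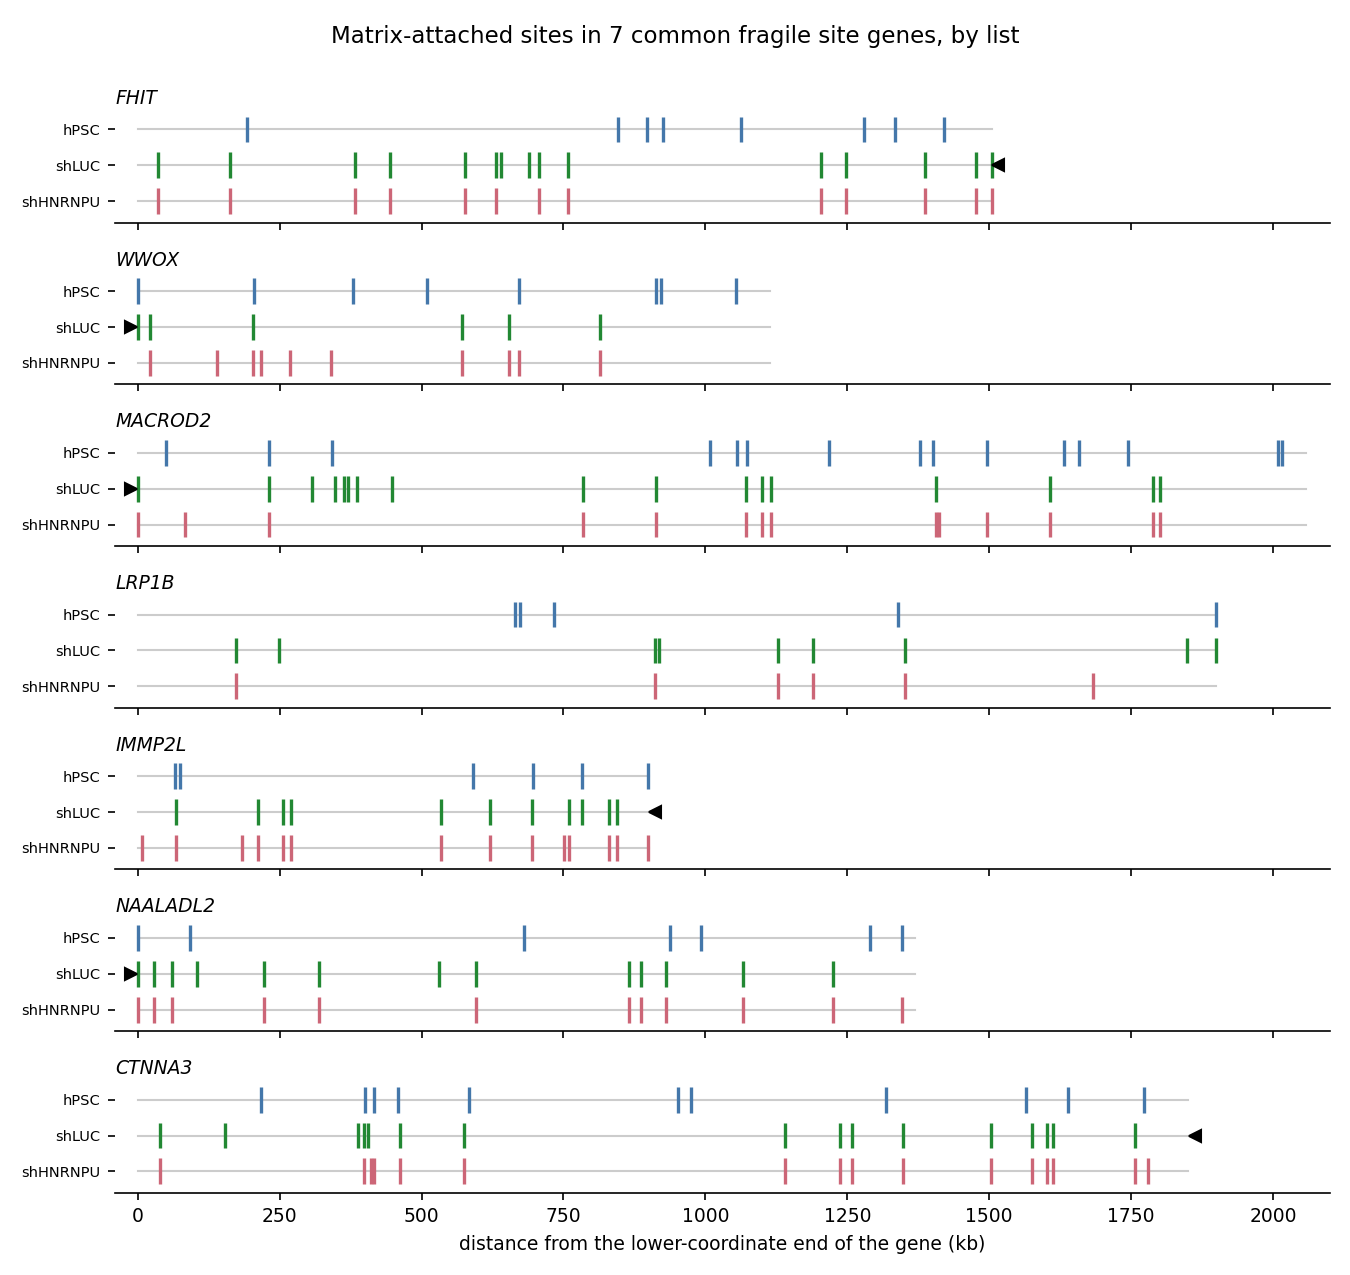
Each vertical mark is a site (overlapping regions joined), drawn with its centre at its distance in kb from the lower-coordinate end of the gene, in 1 row per list, and black triangles mark the start and direction of transcription where the table gives a strand. FHIT has no hPSC mark between 193 and 847 kb and no hairpin mark between 757 and 1203 kb, and the 6 shLUC marks of MACROD2 from 307 to 448 kb have no counterpart in shHNRNPU.

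Neighbouring regions stood farther apart in these genes than in the other long genes, which are shorter (median 715 kb against 1504 kb). Spacing was not set against genes of like length. For hPSC, shLUC and shHNRNPU the median distance between the centres of neighbours was 125, 74.3 and 82.3 kb, against 52.5, 53.7 and 57.7 kb in the other long genes. Per gene it ran from 87.1 kb in FHIT to 309 kb in LRP1B in hPSC, and from 56.2 kb in IMMP2L to 161 kb in WWOX in shLUC. Neighbours less than 10 kb apart made up 7.55% of distances in hPSC, 5.00% in shLUC and 3.85% in shHNRNPU, against 9.20%, 10.4% and 8.91% elsewhere. The longest distance was 739 kb, in LRP1B in shHNRNPU.

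The longest stretch of each gene free of regions had medians of 588, 369 and 446 kb over the genes in the same lists, against 253, 240 and 256 kb in the other long genes. As a share of the gene, however, these medians were 35%, 29.7% and 29.4%, beside 34.0%, 29.9% and 32.9%, so the stretches were long in kb and not as a share of the gene. IMMP2L was free of hPSC regions over 517 kb, 57.5% of its body, where shLUC held 4 regions and shHNRNPU 5. Stretches free in all 3 lists measured 415 kb in LRP1B (chr2:140480813-140895428), 369 kb in CTNNA3, 337 kb in MACROD2, 265 kb in IMMP2L, 212 kb in NAALADL2, 188 kb in FHIT and 144 kb in WWOX. In kb, the LRP1B stretch was longer than that of 96.4% of the other long genes and the WWOX stretch longer than that of 43.5%. They made up 21.8% of LRP1B and 12.9% of WWOX, and these ranks were not set against genes of like length.

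Along the gene body the regions were spread much as in other long genes. The outer parts of the body, together 40% of its length, held 48.3% of the regions in hPSC (35.2 to 61.6), 47.1% in shLUC (36.3 to 58.1) and 44.7% in shHNRNPU (33.9 to 55.9). The other long genes had 45.5%, 44.0% and 44.5% there.

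All 6 genes whose strand the table gives had a region within 1 kb of their 5′ end in at least 1 list, against 170 of 257 other long genes (66.1%), and 0 of 6 had one within 1 kb of their 3′ end, against 13 of 257 (5.06%). With 6 genes the exact interval of the first share is 54.1 to 100%, which includes the share of the others. In each single list 4 of 6 genes had such a region, against 49.8% of the others in hPSC, 43.2% in shLUC and 42.8% in shHNRNPU. The lists that held it differed from gene to gene.

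At WWOX the region chr16:78099449-78099848 spanned the start and had the same coordinates in hPSC and shLUC. The shHNRNPU list had none there. At FHIT the region chr3:61251240-61251639 spanned the start and was in both hairpin lists and not in hPSC. At MACROD2 the region chr20:13995554-13995953 began just inside the gene in both hairpin lists. IMMP2L had regions just inside its start in hPSC (chr7:111561868-111562267) and, overlapping it, in shHNRNPU (chr7:111562074-111562473). NAALADL2 was the 1 gene with a start region in all 3 lists, at chr3:174440834-174441233 in hPSC and chr3:174440986-174441385 in both hairpin lists. CTNNA3 had a region only in hPSC and outside its body, at chr10:67763983-67764382. LRP1B, whose strand the table does not give, had regions at its upper-coordinate end in hPSC (chr2:142130346-142130745) and shLUC (chr2:142130639-142131038). The internal starts of FHIT and MACROD2, whose sequences are printed above, were not overlapped in any list.

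The share of regions in genes nested in these bodies did not differ from their share of the length beyond counting error. The gene table places 71 genes wholly inside the 7, of which 31 are lncRNAs, 30 pseudogenes, 4 miRNAs, 3 snoRNAs and 3 protein-coding genes, and 11 of the 71 held a region in any list. The nested genes cover 11.4% of the bodies and held 8.33% of the regions in hPSC (2.76 to 18.4), 6.90% in shLUC (2.57 to 14.4) and 8.24% in shHNRNPU (3.38 to 16.2). None of the pseudogenes, miRNAs or snoRNAs held one, but the pseudogenes together cover 18.9 kb and the miRNA and snoRNA genes less. Of the protein-coding genes, LRRTM3, a synaptic adhesion gene in CTNNA3, held 1 region in each hairpin list and FLRT3 1 in hPSC, while LRRN3 in IMMP2L held none. The lncRNA genes with a region in both hairpin lists were LOC105377113 and LOC107986015 in FHIT, MACROD2-AS1 in MACROD2 and LOC124901725 in IMMP2L, and LOC124900232 in IMMP2L held 1 in every list. WWOX-AS1 held 1 in shHNRNPU alone, and WWOX-AS2 and LOC105371354 in WWOX and CTNNA3-AS1 in CTNNA3 held 1 in hPSC alone.

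A second list held 15 further genes at fragile sites, chosen by name. All 15 are over 500 kb and so belong to the 308 other long genes with which they are compared here. Its median density was 9.11 regions per Mb in hPSC, 9.20 in shLUC and 8.21 in shHNRNPU, while the median of the 7 genes was 5.94, 8.64 and 8.64 and that of the other long genes 9.63, 10.5 and 9.60. By these medians the second list, with all 15 genes, was nearer to the other long genes in hPSC and shLUC, and farther from them in shHNRNPU. Counted together, its genes had 9.13, 8.83 and 8.54 regions per Mb. The 7 genes together had 5.61, 8.13 and 7.95, and the other long genes 10.3, 11.1 and 10.2. By this measure the second list was nearer to the other long genes in all 3 lists. The order of the medians depended on the chromosome X genes of the second list. Its 13 autosomal genes alone had medians of 10.95, 9.42 and 9.29. These were nearer to the other long genes than the 7 genes were in all 3 lists, and above the other long genes in hPSC. The other long genes were not limited to autosomes in these medians. In the same order of lists, 8, 9 and 9 of its 15 genes lay below the median of the other long genes. By comparison 7, 6 and 6 of the 7 did. In shLUC the second list ran from DMD, the dystrophin gene on chromosome X, with 0 regions in 2220 kb (1 in hPSC and 0 in shHNRNPU), to RORA, a nuclear receptor gene, with 15 regions or 20.2 per Mb. The long genes whose densities in the 3 lists were nearest to those of the 7 genes together, by Euclidean distance of log2(density + 1) over the 3 lists, were STXBP5L with 3, 4 and 4 regions (distance 0.083), MALRD1 with 4, 6 and 5 (0.152) and MARCHF1 with 5, 7 and 6 (0.171).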

How the data were processed

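MAR-seq was done on 6 samples, and 1 region list per group, 3 in all, was deposited. Per the labels each list belongs to the group it is named for. The submitters' processing notes name hg38, cutadapt, Bowtie2, SAMtools, MACS2 and deepTools, with no role or version, and the caller's settings, use of the input and pooling of the 2 samples are not given in the sources used here. Region names in the hPSC list carry the tag rp1, which is not explained. The score column, as the authors deposited it, is 0 in every row, and the other columns used are positions, counted from 1 here. Read depth is unknown.

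Rows overlapping a gene body by at least 1 base were counted with the RefSeq gene table of GRCh38.p14. Overlaps, distances between centres, regions within 1 kb of a gene end and in flanks of 500 kb, and exact 95% intervals were computed in Python 3.11.15 (scipy 1.17.1, pandas 2.3.3, numpy 2.4.6), and plots were drawn in matplotlib 3.10.9. A call meant at least 1.5-fold in genes with at least 5 regions in either list. Named genes were the 7, nested genes with a region, the lowest and highest of the second list in shLUC and the 3 genes of nearest density. The genes, lists and comparisons were chosen with earlier results of these data known. The counting was tested on simulated lists for 313 genes, with 0 miscounted. Alternatives were the region's centre, merging within 1 kb, trimming of 10 kb at gene ends, other reference genes, stricter and looser overlap, list length, flanks of 1000 kb and leaving out each gene.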

Additional observations from a re-analysis of the deposited data

How the results depend on the processing

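Of 142 recomputed values 140 moved by less than counting error or, for counts of regions, stayed within 1.5 times the value reported, and 0 differences whose interval excluded 0 reversed. The 2 that moved were the shares of hPSC regions found in a hairpin list when a neighbour within 5 kb counted as found, 21.7% for shLUC and 23.3% for shHNRNPU. Some of the 140 could not move. Merging regions less than 1 kb apart left counts and spacings as they were, because the closest neighbours in these genes were 5.496 kb apart. Leaving out 1 gene gave at the lowest 45 of 60 regions in hPSC, 70 of 87 in shLUC and 69 of 85 in shHNRNPU. No single gene held enough regions to take a count past 1.5 times, so these settings did not test the counts. The density ratio of hPSC ranged from -1.07 to -0.52 (log2), that of shLUC from -0.59 to -0.16 and that of shHNRNPU from -0.50 to -0.08. The ratio of shHNRNPU to shLUC lay between -0.11 and 0.08, on both sides of 0, as its interval does. The alternatives for hPSC against shLUC, and the genes over 1 Mb as the reference for both comparisons of lists, were chosen after seeing the data. No paired analysis was possible because the lists carry no replicate number and there is 1 for each group, and no replicate could be left out for the same reason. Counts of 5 to 17 regions per gene limit what a single gene can show.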
